A study of Mus musculus with 4 samples.

Results

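The T cell receptor complex and its coreceptors were followed in spleens of Nrf2 knockout and wild-type mice, through 10 genes: Cd3d, Cd3e, Cd3g, Cd247, Cd4, Cd8a, Cd8b1, Lck, Zap70 and Lat. Every probe set whose gene symbol on the platform is one of these was taken. That gave 13 of the 12488 probe sets on the array, for 9 of the 10 genes, and Lck was not analysed here. Of the 13, 11 were bright enough to test, and they cover all 9 measured genes. The knockout group held 2 arrays of spleen RNA from female nrf2 -/- mice and the wild-type group 2 arrays from female nrf2 +/+ littermates, all aged 5 months, when per the labels severe autoimmunity has not yet set in. Both genotypes descend from heterozygotes made by crossing Nrf2 +/+ mice of C57B6/SJL background with nrf2 -/- mice of C57B6/129SVJ background, so each animal carries a mixed strain background. The labels say neither which cells lack the gene nor whether an array holds 1 mouse or a pool, so the p-values cover just the variation among these arrays, which may be technical.

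The antigen receptor of a T cell has no signalling part of its own. It is assembled at the cell surface with the CD3 delta, epsilon and gamma chains and a zeta chain, whose tails carry the tyrosine motifs that start the signal. CD4, on helper T cells, and the CD8 alpha and beta chains, on cytotoxic T cells, bind the MHC molecule and bring the kinase Lck to the complex. Lck phosphorylates the tails, the kinase Zap70 docks on them, and Zap70 phosphorylates the adaptor Lat, on which the downstream enzymes gather. Nrf2 is a transcription factor that induces detoxification and antioxidant genes. In spleen these transcripts come mostly from T cells of the white pulp, and Cd247, Zap70 and Lat are also known in natural killer cells, Lat in mast cells and platelets, and Cd8a and Cd4 in some dendritic cells. In a whole organ, fewer T cells and less RNA per T cell cannot be told apart.

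The probe-set values are intensities on a linear scale. Values under 185.5, the 25th percentile of all 4 arrays together, were raised to that floor before log2 was taken, and a probe set was tested when it ranked above the 40th percentile by mean log2 value, which left 7453. The targeted gene went with the labels: Nfe2l2, the gene for Nrf2, read 202 and 178.6 in knockout spleens, against 3537 and 6321 in wild-type spleens. Wild-type replicate 1 stood apart, with Pearson's r (over the tested probe sets, not independent of each other) of 0.849 to 0.851 against the other 3 arrays, where those 3 correlated with each other at 0.938 to 0.947. Its ratio of 3' to 5' signal for Gapdh, which grows as RNA is degraded or labelled short, was also the highest, at 88.3 against 8.07 to 34.8 in the others. By beta-actin it was not, at 14.4 against 19.3 and 16.1 in the knockout arrays and 8.86 in wild-type replicate 2. Both knockout arrays thus lay above both wild-type arrays by beta-actin, and above wild-type replicate 2 by Gapdh (25.5 and 34.8 against 8.07). In the fits without wild-type replicate 1 this ratio cannot be told apart from genotype. In every array the 3' signal was far above the 5' signal, at least 8.07-fold for Gapdh and 8.86-fold for beta-actin. Leaving out wild-type replicate 1 does not remove that limit, and the part of this bias in the members' values was not tested. Because wild-type replicate 1 stood apart, differences of the members and medians of the gene lists are given with and without that array. Thy1, a surface marker of mouse T cells, was bright in all 4 arrays. It read 11040 and 9975 in knockout spleen, and 18119 and 12231 in wild-type spleens. Thy1 is the brightest tested gene of the T cell identity list given below, of which 9 of 13 genes on the array were bright enough to test.

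No member could be said to differ between the genotypes. In limma's moderated test with Benjamini-Hochberg adjustment over all 7453 probe sets at 0.05, 0 of the 11 member probe sets passed, against 4 of all tested probe sets (0.0537%), all 4 lower in knockout. At an unadjusted p under 0.05 there were 2 member probe sets, Cd3d and Cd8a, both lower in knockout, against 1.74% of all. That count rested on the arrays and the variance model: it was 0 without wild-type replicate 1, without knockout replicate 2, with array weights and without the intensity trend, and 7 of 11 without wild-type replicate 2, where 2189 of all 7453 probe sets reached it. Of the 11, 8 measured lower and 3 higher in knockout spleen, with a median log2 difference of -0.46, while 46.3% of all tested probe sets measured lower and their median was 0.04. Both knockout arrays lay below both wild-type arrays in 4 of the 11, where 12.2% of all tested probe sets did so, and in 0 of the 11 did both lie above, against 14.3% of all. Leaving out wild-type replicate 1 gave a median of -0.44, and leaving out wild-type replicate 2 gave -1.05. With a median standard error of 0.46 over all tested probe sets, small differences could not have been resolved here.

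**Figure D1:**
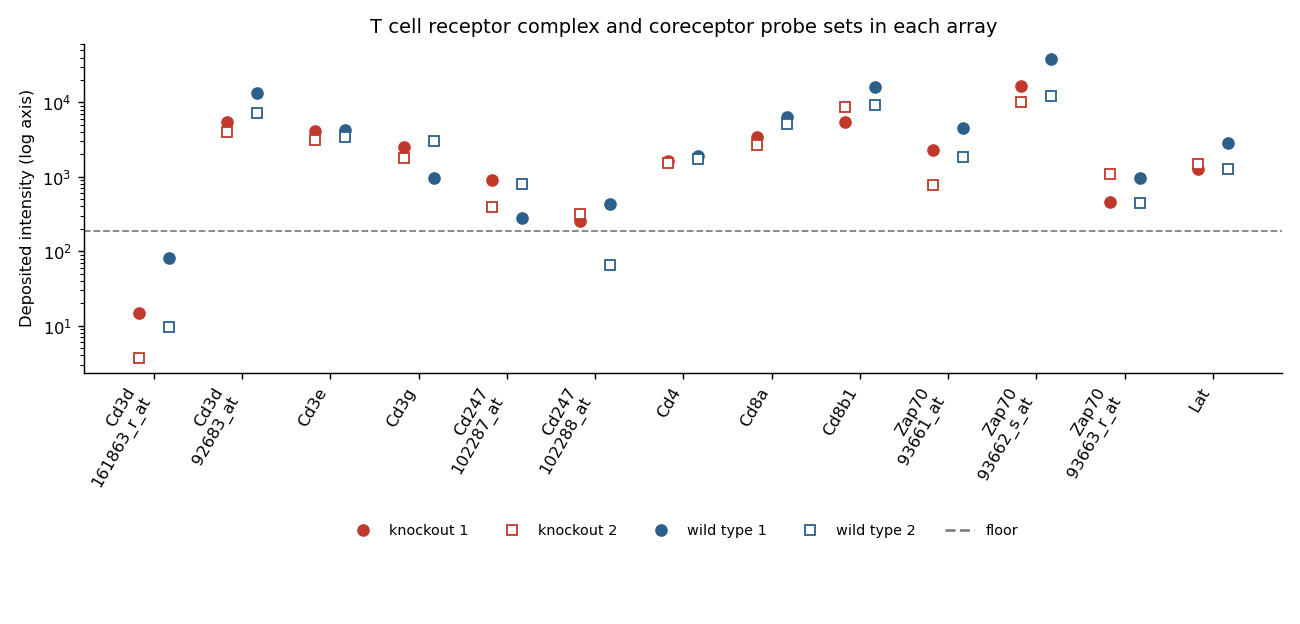
Deposited intensity (log axis) of each of the 13 member probe sets in the 2 knockout arrays (red, left) and the 2 wild-type arrays (blue, right), filled circles for replicate 1 and open squares for replicate 2, with the floor of 185.5 as a dashed line. Cd3d (92683_at), Cd4, Cd8a and Cd8b1 are the 4 tested probe sets in which both knockout arrays lie below both wild-type arrays.

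The CD3 chains gave unlike differences, but none passed. Unequal change was not resolved, since the ratios of Cd3d to Cd3e and to Cd3g, given below, had an exact permutation p of 0.333. That is the smallest that 2 arrays against 2 allow. Cd3d, the delta chain, read 5471 and 3979 in knockout spleens, against 13313 and 7303 in wild-type spleens (probe set 92683_at). All knockout values lay below all wild-type values, and wild-type replicate 1 was 1.82-fold above wild-type replicate 2. The log2 difference was -1.08 (SE 0.46, 95% confidence interval -2.14 to -0.02, n = 2 per group), a 2.11-fold lower level in knockout with a limma adjusted p of 0.992 over all probe sets. A further Cd3d probe set, 161863_r_at, was not tested, since it read 14.7 and 3.7 in knockout and 82.1 and 9.7 in wild-type spleens, all under the floor.

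Cd3e, the epsilon chain, read 4101 and 3092 in knockout spleens, against 4252 and 3380 in wild-type spleens. The groups overlapped, and the difference was -0.09 (SE 0.40, 95% confidence interval -1.02 to 0.84, adjusted p = 0.996). Cd3g, the gamma chain, read 2503 and 1767 in knockout spleens, against 974.5 and 3013 in wild-type spleens. Here the wild-type arrays were the extremes on both sides, 3.09-fold apart, with wild-type replicate 1 the lowest of the 4 arrays. The difference was 0.30 (SE 0.57, 95% confidence interval -1.03 to 1.62, adjusted p = 0.992) and turned to -0.52 without wild-type replicate 1.

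The 3 CD3 genes lie in 1 cluster on chromosome 9, and Cd3g and Cd3d are read in opposite directions from start sites 1355 bases apart. With 4 arrays their differences had opposite signs, and without wild-type replicate 1 both were negative. The upstream sequences of the 3 genes are shown as a description, and their part in the values was not tested. Each is the 250 bases before the start site from RefSeq's GRCm38.p6 table, 5' to 3' on the strand of the gene. Capitals mark matches on either strand to 6 motifs: the E-box CAGNTG, the ETS motif GGAAGT, the RUNX motif TGTGGT, the GATA motif AGATAA, the TATA box TATAAA and the core of the antioxidant response element that Nrf2 binds, TGACNNNGC.
Cd3g (chr9:44980432-44980681, minus strand): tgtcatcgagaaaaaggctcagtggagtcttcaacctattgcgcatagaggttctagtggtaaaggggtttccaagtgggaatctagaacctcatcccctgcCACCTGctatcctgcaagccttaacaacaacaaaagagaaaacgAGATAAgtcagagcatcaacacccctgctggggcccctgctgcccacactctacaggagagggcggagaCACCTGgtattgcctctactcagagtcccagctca
Cd3d (chr9:44981536-44981785, plus strand): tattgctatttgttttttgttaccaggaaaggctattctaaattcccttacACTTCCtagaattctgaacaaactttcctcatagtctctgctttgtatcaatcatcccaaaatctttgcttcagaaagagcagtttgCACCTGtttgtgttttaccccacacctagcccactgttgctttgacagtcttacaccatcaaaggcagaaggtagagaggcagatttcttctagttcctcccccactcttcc
Cd3e (chr9:45009612-45009861, minus strand): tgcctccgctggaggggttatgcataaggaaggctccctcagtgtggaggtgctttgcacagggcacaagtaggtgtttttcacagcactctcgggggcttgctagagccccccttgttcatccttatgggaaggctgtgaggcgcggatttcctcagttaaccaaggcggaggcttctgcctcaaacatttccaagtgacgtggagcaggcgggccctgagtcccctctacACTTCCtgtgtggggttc
An E-box match was found in Cd3g, at 148 and 35 bases before the start, and in Cd3d, at 112 bases, and 44.8% of all 32851 such windows hold one. An ETS match was found in Cd3d, at 199 bases, and in Cd3e, at 18 bases, against 19.7% of all windows. The GATA match of Cd3g, at 104 bases, has a share of 9.99% among all windows. No RUNX motif, no TATA box and no antioxidant response element core stood in these 3 windows, against 14%, 12.4% and 10.2% of all windows. No match overlapped another, and a match is a description of letters, not a site.

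Cd247, which encodes the zeta chain, was dimmer and was measured by a pair of probe sets. The tested one, 102287_at, read 897.6 and 388.8 in knockout spleens, against 278.4 and 813 in wild-type spleens. Each genotype held 1 high and 1 low array, and the difference was 0.31 (SE 0.69, adjusted p = 0.992), or -0.46 without wild-type replicate 1. The other probe set, 102288_at, too dim to test, read 254.9 and 315.1 in knockout spleen, and 436.7 and 66.3 in wild-type spleens. Wild-type replicate 1 was thus the lowest array on one probe set and the highest on the other.

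Of the coreceptors, the CD8 chains measured lower in knockout spleen and CD4 differed least. Cd8a, the CD8 alpha chain, read 3419 and 2650 in knockout spleens, against 6408 and 5207 in wild-type spleens. The groups did not overlap, and the gap between them was wider than the spread within either, 1.29-fold between the knockout arrays and 1.23-fold between the wild-type arrays. The difference was -0.94 (SE 0.40, 95% confidence interval -1.86 to -0.02), a 1.92-fold lower level in knockout with an adjusted p of 0.992. Without wild-type replicate 1 it was -0.79, so its size did not rest on that array.

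Cd8b1, the CD8 beta chain, which pairs with alpha on conventional cytotoxic T cells, read 5400 and 8739 in knockout spleens, against 16261 and 9288 in wild-type spleens. The groups did not overlap, though knockout replicate 2 came close to wild-type replicate 2. The difference was -0.84 (SE 0.47, adjusted p = 0.992) and -0.44 without wild-type replicate 1. The name of this probe set carries a mark of possible cross-hybridisation, and it is the 1 Cd8b1 probe set here.

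Cd4, the coreceptor of helper T cells, read 1628 and 1552 in knockout spleens, against 1927 and 1763 in wild-type spleens. The knockout values lay just below the wild-type values, with the smallest spread within groups of any tested member, 1.05-fold between knockout and 1.09-fold between wild-type arrays. The difference was -0.21 (SE 0.39, 95% confidence interval -1.10 to 0.68, adjusted p = 0.992), a 1.16-fold lower level in knockout.

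**Figure D2:**
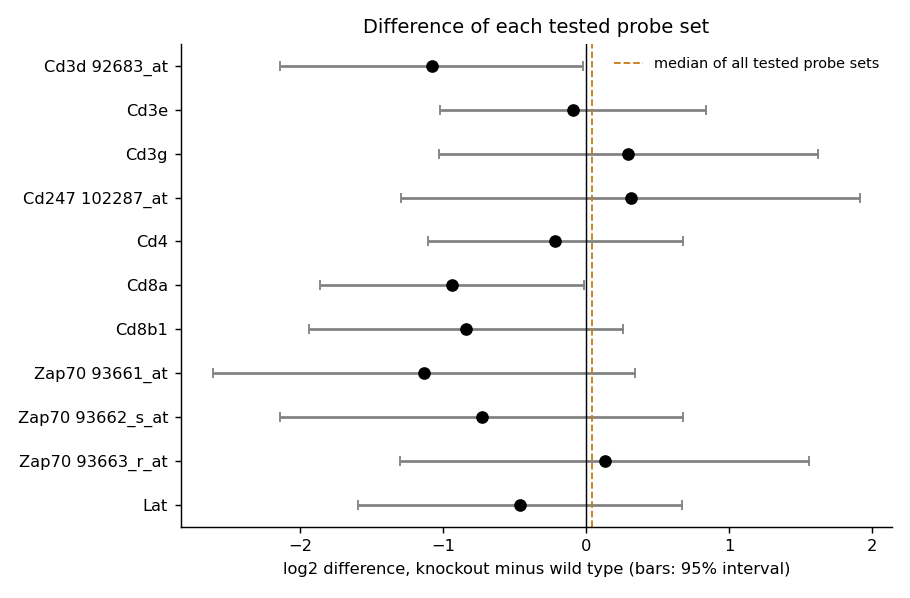
Log2 difference, knockout minus wild type, of the 11 tested member probe sets (points) with 95% confidence intervals from limma (bars), and the median of all tested probe sets, 0.04, as a dashed line. The intervals of Cd3d (92683_at) and Cd8a end just below 0 and the other 9 include 0; no adjusted p passed.

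The balance of the coreceptors was then set out within each array, which removes only a factor that acts equally on both probe sets. A shift that differs between probe sets, as seen for wild-type replicate 1 below, stays in the ratio. The log2 ratio of Cd8a to Cd4, centred on its mean over the 4 arrays, was -0.21 and -0.51 for the knockouts, against 0.45 and 0.28 for the wild type. The ratio was thus lower in both knockout arrays, by 0.73 on average (a 1.66-fold lower ratio), and by 0.64 without wild-type replicate 1. An exact two-sided permutation test gave p = 0.333, the smallest that 2 arrays against 2 allow. The ratio of Cd8b1 to Cd4 gave -0.69 and 0.07 in knockout, and 0.65 and -0.03 in wild-type spleens, which overlapped (difference -0.63, exact permutation p = 0.667). Of the 4 other ratios, chosen after the values were seen, Cd8a to Cd3e gave a difference of -0.85, Cd3d to Cd3e -0.99 and Cd3d to Cd3g -1.37, each with separate groups and an exact permutation p of 0.333, and Cd4 to Cd3e gave -0.12 (exact permutation p = 0.667). Adjusted over the 6 ratios, the p-values were 0.5 and 0.667. The ratio of Cd3d to Cd3g rested on wild-type replicate 1, since without it the differences of these genes were -0.65 and -0.52. A ratio shows unequal change of 2 probe sets, not which of them changed.

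Among the signalling members, Zap70 was measured by 3 probe sets that did not go together. The brightest, 93662_s_at, read 16663 and 10061 in knockout spleens, against 38354 and 12016 in wild-type spleens. Wild-type replicate 1 was 3.19-fold above wild-type replicate 2, and knockout replicate 1 lay above wild-type replicate 2, so the groups overlapped (difference -0.73, SE 0.61, adjusted p = 0.992). The next, 93661_at, read 2296 and 776.3 in knockout spleens, against 4589 and 1871 in wild-type spleens. It had the most negative difference of the 11, -1.13, but also one of the widest spreads, with a standard error of 0.64, overlapping groups and an adjusted p of 0.992. The third, 93663_r_at, read 461.1 and 1091 in knockout spleens, against 951.6 and 441.5 in wild-type spleens, a difference of 0.13 (SE 0.62, adjusted p = 0.997). Without wild-type replicate 1 the 3 differences were 0.11, -0.49 and 0.68 in the same order. The name of the first carries a mark of possible cross-hybridisation, and that of the third a mark of probes picked under relaxed rules. Both were left out in the alternative without cross-hybridising probe sets.

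Zap70 was the 1 member whose upstream sequence held the antioxidant response element core. RefSeq gives it 3 start sites, and the window before the third held 2 matches, at 96 and 49 bases before the start, with an E-box match at 184 bases. Windows were found for 8 of the 10 members, 11 in all, and 10.2% of all windows hold this core, so 1 of 11 is near the background. The window is shown for these matches, in capitals.
Zap70 (chr1:36778734-36778983, plus strand): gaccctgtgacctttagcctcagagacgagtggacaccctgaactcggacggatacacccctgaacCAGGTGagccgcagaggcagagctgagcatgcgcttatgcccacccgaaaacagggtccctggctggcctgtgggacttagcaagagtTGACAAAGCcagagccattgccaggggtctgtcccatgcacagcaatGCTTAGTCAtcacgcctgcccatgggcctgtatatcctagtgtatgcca

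Lat, the adaptor that Zap70 phosphorylates, read 1278 and 1499 in knockout spleens, against 2864 and 1265 in wild-type spleens. A single array, wild-type replicate 1, was high, and the other 3 lay close together. The difference of -0.46 (SE 0.49, adjusted p = 0.992) became 0.13 without that array.

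**Figure D3:**
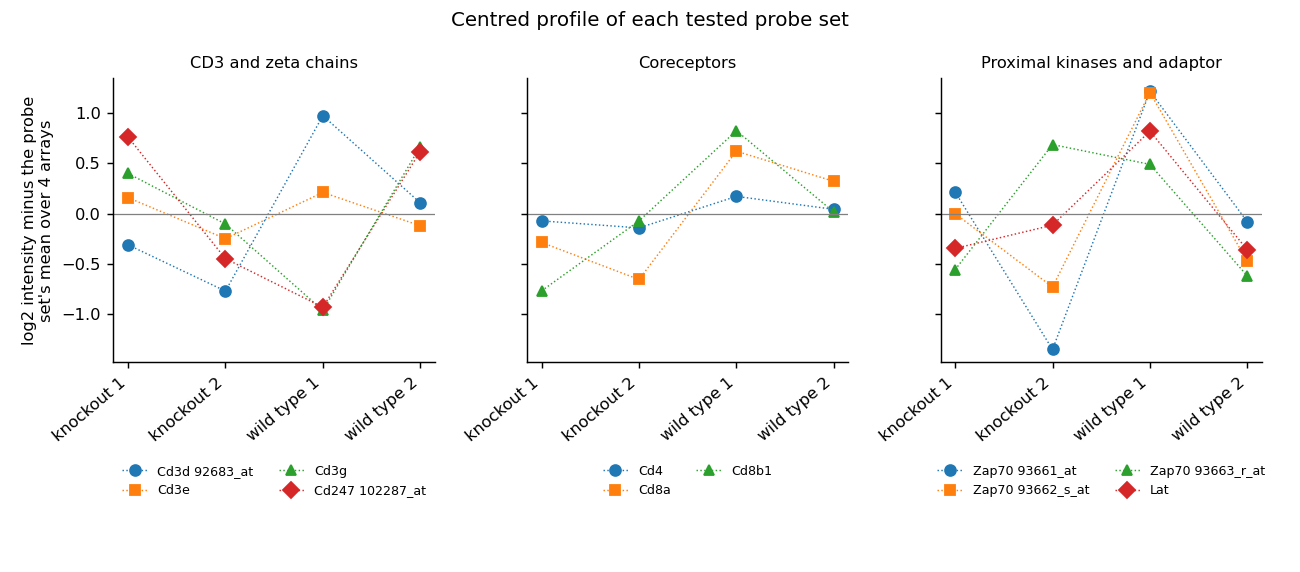
Log2 intensity of each tested probe set minus its own mean over the 4 arrays, for the CD3 and zeta chains (4 probe sets), the coreceptors (3) and the proximal kinase and adaptor (4), with knockout arrays on the left and wild-type arrays on the right; dotted lines only link the points of a probe set. Wild-type replicate 1 is the highest array for 8 of the 11 and the lowest for Cd3g and Cd247.

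Wild-type replicate 1 was the highest array for 8 of the 11 tested probe sets, and knockout replicate 2 the lowest for 6. Against the mean of the other 3 arrays, wild-type replicate 1 was 3.07-fold and 3.04-fold higher for Zap70 probe sets 93661_at and 93662_s_at, 2.46-fold higher for Cd3d, and 0.411 and 0.424 times as high for Cd3g and Cd247. Its part in these differences by way of RNA quality was not tested, but the differences without it were measured. Cd3d was then -0.65, Cd8a -0.79, Cd8b1 -0.44, Cd4 -0.15 and Zap70 (93661_at) -0.49, all in the same direction as with 4 arrays. Cd3e, at 0.08, Cd3g, Cd247, Lat and Zap70 (93662_s_at) changed sign. No member passed with any array left out.

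**Figure D4:**
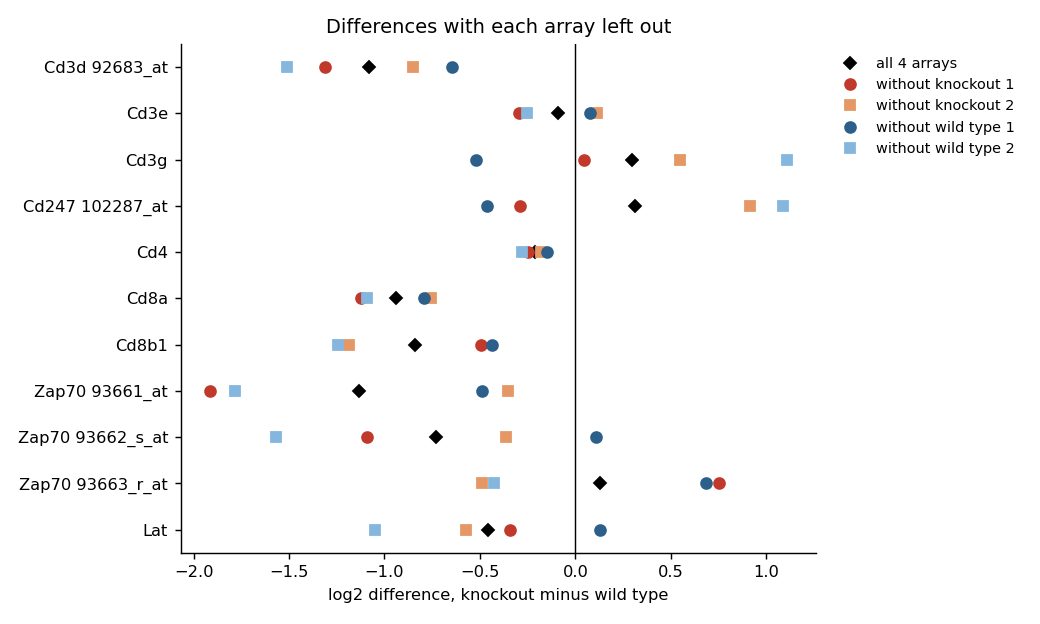
Log2 difference, knockout minus wild type, of the 11 tested probe sets with all 4 arrays (black diamonds) and with each array left out in turn (coloured points). Cd3d, Cd4, Cd8a, Cd8b1 and Zap70 (93661_at) stay below 0 in all of these fits, with Cd4 within -0.28 to -0.15 and Cd8a within -1.12 to -0.76.

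The wider T cell receptor pathway gave no member that passed either, and no common direction. Each gene is counted here by its brightest tested probe set. Of 9 tested kinases beside Lck and Zap70, 6 measured higher and 3 lower in knockout spleen, with a median of 0.11 (0.0001 without wild-type replicate 1). That count includes Pdk1 (-0.18), which encodes a mitochondrial pyruvate dehydrogenase kinase and not a kinase of the T cell receptor pathway. Fyn, a Src family kinase that shares targets with Lck, read 5557 and 4273 in knockout spleens, against 950.7 and 4830 in wild-type spleens, set apart by wild-type replicate 1 alone (difference 1.19, or 0.01 without that array, adjusted p = 0.992). Of 9 tested adaptors, 5 measured higher and 4 lower (median 0.02, or 0.04 without wild-type replicate 1). Lcp2, which encodes SLP-76, the adaptor that works beside Lat, read 9082 and 6080 in knockout spleens, against 3249 and 5853 in wild-type spleens (difference 0.77, or 0.34 without wild-type replicate 1, adjusted p = 0.992). Sh2d1a, which encodes the SLAM-associated adaptor SAP, read 711 and 435.9 in knockout spleens, against 769 and 980.3 in wild-type spleens (difference -0.64, adjusted p = 0.992). The groups of Lcp2 and of Sh2d1a did not overlap, in opposite directions.

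Of 7 tested phosphatases and ubiquitin ligases, 5 measured higher and 2 lower, with a median of 0.31 (0.12 without wild-type replicate 1). Ptpn22, a phosphatase that restrains Lck and Zap70, read 27511 and 17545 in knockout spleens, against 3519 and 19380 in wild-type spleens (difference 1.41, adjusted p = 0.992). Wild-type replicate 1 was again the low array, and the difference was 0.18 without it. Of 12 tested effectors, 6 measured higher and 6 lower (median -0.02, or -0.08 without wild-type replicate 1). Among them the NFAT factors, which calcium signalling sends to the nucleus, went opposite ways, Nfatc1 by 0.72 and Nfatc2 by -0.59, each with separate groups and an adjusted p of 0.992. Without wild-type replicate 1 these were 0.24 and -0.23. Of 11 tested accessory and costimulatory molecules, 5 measured higher and 6 lower (median -0.14), which became 3 and 8 without wild-type replicate 1 (median -0.10). The 4 with the smallest p went both ways. The tetraspanin gene Cd53 gave 0.65, which turned to -0.14 without that array, and the adhesion receptor gene Cd44 gave 0.58, with separate groups and 0.51 without it. The adhesion receptor gene Cd2 gave -0.56 and the integrin chain gene Itgal -0.49, which were -0.16 and -0.26 without it. In these 5 lists 0 genes reached even an unadjusted p under 0.05 in limma, against 1.74% of all tested probe sets.

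T cell identity genes were also split, 5 higher and 4 lower of 9 tested (median 0.34), which became 4 and 5 without wild-type replicate 1 (median -0.17). With all 4 arrays 0 passed in limma and 1 had an unadjusted p under 0.05. That gene was Cd96, a surface receptor of T and natural killer cells, which read 879.1 and 629.6 in knockout spleens, against 1905 and 1281 in wild-type spleens (difference -1.07, or -0.78 without wild-type replicate 1, adjusted p = 0.992). Its groups did not overlap, and Thy1 was likewise separate at -0.50 (-0.22 without that array). In the other direction Gata3, a factor of helper T cells, gave 0.64 and Satb1, a chromatin organiser of T cells, 0.47, both with separate groups, and 0.66 and 0.33 without that array. Il7r, the interleukin 7 receptor that keeps resting T cells alive, gave 0.73 with overlapping groups, and this turned to -0.17 without that array. Of the T cell receptor's own gene segments, 8 had a probe set and 3 were bright enough to test, a list set up after the platform's symbols were seen. All 3 measured lower, with differences of -0.32 for Trbv1, -0.42 for Trgv1 and -0.18 for Trav9d-3 (limma adjusted p = 0.992 for all) and a median of -0.32, or -0.65 without wild-type replicate 1, and such probe sets may share sequence with related segments.

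**Figure D5:**
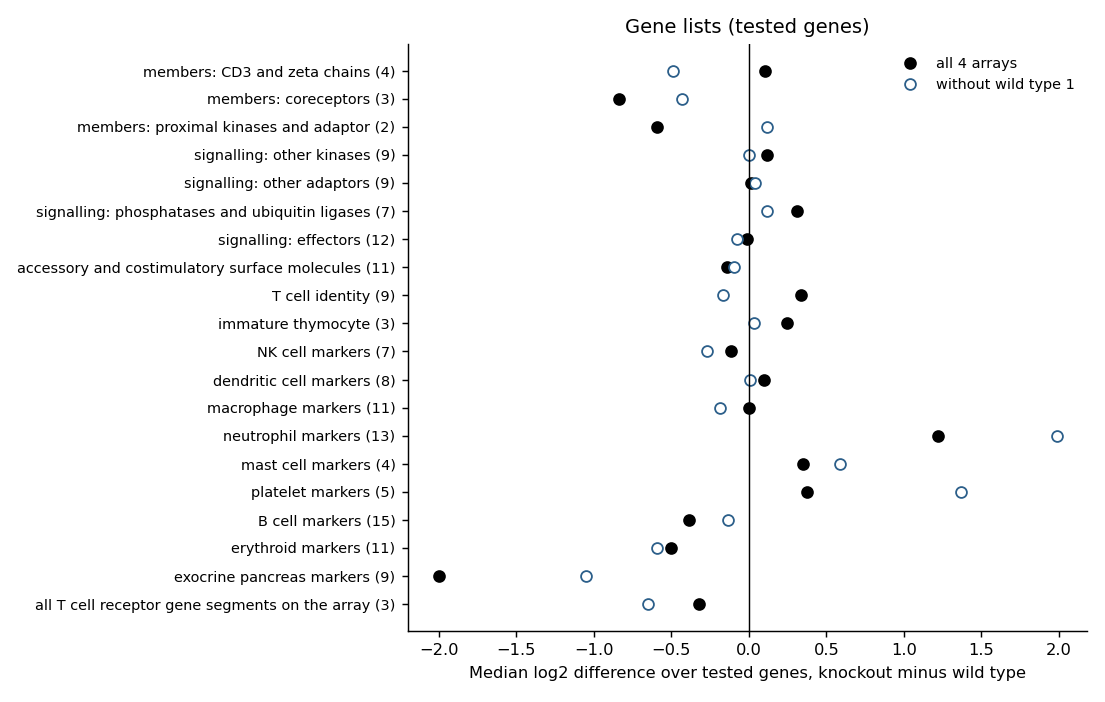
Median log2 difference, knockout minus wild type, over the tested genes of each list (number in brackets), with all 4 arrays (filled) and without wild-type replicate 1 (open). The other kinase, adaptor and effector lists lie near 0, phosphatases and ubiquitin ligases at 0.31 and 0.12, and the coreceptors at -0.84 and -0.44. With all 4 arrays the medians furthest from 0 are those of exocrine pancreas (-2.0) and neutrophil genes (1.22). Without wild-type replicate 1 they are those of neutrophil (1.99) and platelet genes (1.37).

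Markers of cells that share members with T cells were counted beside them. Summed intensities, here and in the next paragraph, take all probe sets of a list's genes on the array, tested or not. Bright genes thus weigh most in a sum. Natural killer markers, 7 of 12 tested, gave 3 higher and 4 lower (median -0.12, or -0.27 without wild-type replicate 1), with summed intensities of 8865 and 10644 in knockout and 9921 and 11805 in wild-type spleens. Dendritic cell markers, 8 of 9 tested, gave 5 higher and 3 lower (median 0.10, or 0.0093 without that array), with sums of 131737 and 100176 in knockout and 128050 and 121469 in wild-type spleens. Mast cell markers, 4 of 10 tested, were all higher (median 0.35, or 0.59 without that array), with sums of 8461 and 8434 in knockout and 6859 and 6205 in wild-type spleens. Platelet markers, 5 of 7 tested, were all higher (median 0.37, or 1.37 without that array), with sums of 23253 and 19980 in knockout and 26736 and 9166 in wild-type spleens. Macrophage markers, 11 of 12 tested, gave 6 higher and 5 lower (median 0.0033), and 3 higher and 8 lower without that array (median -0.19). Immature thymocyte genes, 3 of 5 tested, gave 2 higher and 1 lower (median 0.24, or 0.03 without that array). None of these genes passed, and none of the 4 sums was lower in both knockout arrays than in both wild-type arrays.

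With all 4 arrays, the medians of the B cell, erythroid, neutrophil and pancreas lists lay further from 0 than these; without wild-type replicate 1 only that of the neutrophil list did, the platelet list being at 1.37. B cell markers, 15 of 16 tested, gave 5 higher and 10 lower (median -0.39, or -0.13 without wild-type replicate 1), with sums of 297491 and 233401 in knockout and 396086 and 283920 in wild-type spleens. Erythroid markers, 11 of 11 tested, gave 1 higher and 10 lower (median -0.50, or -0.59 without that array), with sums of 180578 and 342331 in knockout and 494943 and 266963 in wild-type spleens. Exocrine pancreas genes, 9 of 10 tested, gave 2 higher and 7 lower (median -2.0, or -1.05 without that array), with sums of 10178 and 12507 in knockout and 86891 and 22457 in wild-type spleens, without overlap. Neutrophil markers, 13 of 13 tested, gave 12 higher and 1 lower (median 1.22, or 1.99 without that array), with sums of 542558 and 601755 in knockout and 722419 and 183436 in wild-type spleens. The sums of the B cell, erythroid, neutrophil, platelet and pancreas lists were all highest in wild-type replicate 1. In limma 0 genes of these 4 lists and of the platelet list passed, and at an unadjusted p under 0.05 there were 6 neutrophil and 2 platelet genes higher, and 7 pancreas and 2 B cell genes lower, where 1.74% of all tested probe sets reached it. No measured gene of the natural killer, dendritic, platelet, B cell, erythroid, neutrophil or pancreas lists lay under the floor in all 4 arrays, and 1 of the mast cell list did. The part of these cells in the members' values was not tested.

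Of 6692 other tested probe sets with 1 gene name, the 5 whose centred values lay nearest to the mean profile of the 4 CD3 and zeta probe sets over the 4 arrays were Coprs, Snx2, Exoc8, St7 and Dhx40, at Euclidean distances of 0.085, 0.0963, 0.102, 0.105 and 0.106 on the log2 scale. That mean profile was 0.25 and -0.39 for the knockouts, against -0.18 and 0.32 for the wild type. It averages chains whose measured profiles were unlike.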

How the data were processed

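Total RNA of 4 spleens or spleen pools was measured on 1-colour arrays. The deposited values are probe-set intensities on a linear scale, the software and scaling of the authors being not given in the sources used here. Of 12488 probe sets, 66 controls were left out. The number of arrays limits the precision, as intensities carry no counts. Symbols came from the platform annotation, updated by gene identifier (10817 of the 10833 probe sets with 1 symbol matched), and 396 probe sets had several symbols and 1193 none.

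After the floor and filter described above, the genotypes were tested with limma version 3.58.1 under R 4.3.3 (lmFit, eBayes with intensity trend, 5.88 prior degrees of freedom, two-sided, Benjamini-Hochberg over all 7453 tested probe sets). The procedure was tested on simulated data. Named genes were all member probe sets, Nfe2l2, up to 4 genes with the smallest p of each T cell list (a part of which is named) and the 5 nearest profiles, while Thy1 and single genes beyond these were named after their values were seen. The members, the lists and the tests were chosen with earlier results of these data known. Alternatives covered scaling, floor, pseudocount, filter, variance model, array weights, replicate block, cross-hybridising probe sets and each array left out. Upstream sequences came from RefSeq (GRCm38.p6). Figures were drawn with matplotlib 3.10.9.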

Additional observations from a re-analysis of the deposited data

How the results depend on the processing

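Under each of 14 alternatives 0 member probe sets passed in limma, and of 149 member differences recomputed, 9 changed sign, all 9 with 1 array left out. Over the 4 fits that leave out an array, differences spanned -0.46 to 1.09 for Cd247, -0.29 to 0.11 for Cd3e, -0.52 to 1.11 for Cd3g, -1.05 to 0.13 for Lat, -1.57 to 0.11 for Zap70 (93662_s_at) and -0.49 to 0.75 for Zap70 (93663_r_at), and the member median from -1.05 to -0.34. The filter moved that median too, to -0.21 without a filter (13 probe sets) and -0.73 with a filter at the 60th percentile (9 probe sets). The lowest adjusted p of any member was 0.0766, for Cd3d without wild-type replicate 2. The count of 4 probe sets passing overall ranged from 3 to 13 with an array left out (10 without knockout replicate 1 and 13 without knockout replicate 2). It was 0 when dim probe sets were kept (339 of 12422 at an unadjusted p under 0.05) and 2 of 5909 without cross-hybridising probe sets. With a replicate block, for which the labels give no pairing, it was 36. The cause of these changes was not tested for any of these alternatives. Same-numbered arrays deviated from their group means with a correlation of 0.039. The fit without an array leaves 1 array in a group, which is assumed to vary like the others.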
